A study of Mus musculus with 4 samples.

Results

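The 7 mast cell genes Cpa3, Cma1, Tpsb2, Mcpt4, Ms4a2, Hdc and Kit were examined among the 24411 genes of the count table, each taken by its symbol as a known mast cell gene; the choice used no threshold on a value but was made with earlier results of these data known. RNA came from the mucus-secreting sublingual salivary gland of females homozygous for the Nkx2.3 knockout (Nkx2.3-/-), C57BL/6J by background strain. The groups were 32-week-old knockout glands (2 libraries, replicates 3 and 4) and 8-week-old knockout glands (2 libraries, replicates 1 and 2), so both ages carried the same deletion and no gland with intact Nkx2.3 was analysed here. The labels do not tell whether the 4 libraries come from separate animals or pools, and the series' design text counts 4 replicates where the labels give 2 libraries per age. An n of 2, its SD and the p-values therefore measure the spread between these libraries, which may be technical.

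Mast cells are tissue-resident immune cells that mature from blood-borne precursors under stem cell factor, the ligand of the receptor tyrosine kinase Kit. They store proteases, histamine and heparin-bearing serglycin in granules and release them when antigen crosslinks IgE on the high-affinity IgE receptor or when other receptors are triggered. In mice, connective tissue mast cells carry chymases, tryptase and carboxypeptidase A3, whereas mucosal mast cells carry the chymases Mcpt1 and Mcpt2. Kit is not restricted to mast cells, since duct cells of salivary glands, melanocytes and blood progenitors express it too.

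The granule protease transcripts were present but rare, and their sum was high in 1 library of each age and low in the other. In bulk tissue, fewer mast cells and less RNA per mast cell cannot be told apart. Carboxypeptidase, chymase and tryptase genes had between 1 and 32 counts per library, the IgE receptor chain Ms4a2 had none, and the histamine-forming enzyme Hdc had 1 count in all. Kit was the abundant member, with 825 counts in all, and it was highest in the library where the other members' sum was lowest and lowest where that sum was highest. The 2 lowest sums, 13 and 17 counts, were not resolved from each other, nor were the 2 highest, 81 and 47 counts. The library where Kit was highest was also the highest for 34.8% of all genes tested. Of the 5 members that could be fitted, none passed the test between the ages.

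Upstream windows are shown for the detected protease genes that RefSeq covers and for Kit. All 3 protease genes were lowest or tied for lowest in 8-week replicate 2, the library in which Kit was highest. That library was lowest for 35.3% of all genes tested and highest for 34.8%. Against 32-week replicate 3, the counts there were 3 against 4 for Cma1 and 1 against 1 for Mcpt4. Tpsb2, which has no window, was lowest in 32-week replicate 3. Each window runs from 250 bases before to 50 bases after the RefSeq transcript start (RefSeq, GRCm38.p6), is written 5′ to 3′ on the strand of the gene, and matched the NCBIM37 genome exactly and once. Capitals mark the GATA words on either strand, which are AGATAA and AGATAG with an A in front and TGATAA and TGATAG with a T in front, the letters read by GATA factors such as Gata2, a transcription factor of mast cells.
Cpa3: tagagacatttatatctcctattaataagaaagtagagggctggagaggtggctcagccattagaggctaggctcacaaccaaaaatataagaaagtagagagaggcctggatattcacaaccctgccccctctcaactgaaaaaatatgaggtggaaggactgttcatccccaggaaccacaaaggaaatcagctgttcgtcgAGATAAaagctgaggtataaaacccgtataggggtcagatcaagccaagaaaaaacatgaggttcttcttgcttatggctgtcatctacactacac
Cma1: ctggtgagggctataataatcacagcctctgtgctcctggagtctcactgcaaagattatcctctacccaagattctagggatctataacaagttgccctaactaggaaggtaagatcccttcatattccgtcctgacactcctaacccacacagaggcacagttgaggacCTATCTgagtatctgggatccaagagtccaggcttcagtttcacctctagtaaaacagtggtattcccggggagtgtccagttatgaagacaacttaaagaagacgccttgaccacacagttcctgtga
Mcpt4: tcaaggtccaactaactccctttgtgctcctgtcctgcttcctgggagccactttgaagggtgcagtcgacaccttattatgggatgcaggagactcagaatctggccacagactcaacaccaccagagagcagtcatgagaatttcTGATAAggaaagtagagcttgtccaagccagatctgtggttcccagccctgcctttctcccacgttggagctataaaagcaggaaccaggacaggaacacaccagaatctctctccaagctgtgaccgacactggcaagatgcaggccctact
Kit: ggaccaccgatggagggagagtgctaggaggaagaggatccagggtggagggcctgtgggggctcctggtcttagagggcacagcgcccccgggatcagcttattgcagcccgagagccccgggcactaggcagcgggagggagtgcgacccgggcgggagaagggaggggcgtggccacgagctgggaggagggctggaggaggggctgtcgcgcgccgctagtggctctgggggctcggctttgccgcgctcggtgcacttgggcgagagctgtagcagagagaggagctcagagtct
On NCBIM37 the windows lie at chr3:20142031-20142330 (minus strand) for Cpa3, chr14:56563463-56563762 (minus strand) for Cma1, chr14:56681098-56681397 (minus strand) for Mcpt4 and chr5:75970762-75971061 (plus strand) for Kit. The GATA word starts at position -46 from the transcript start in Cpa3, at -79 in Cma1 (as CTATCT, its reverse complement) and at -103 in Mcpt4, and the Kit window holds none. RefSeq gave a window for 6 of the 7 genes, all but Tpsb2, and 5 of these 6 held a GATA word, with 3 in Ms4a2 and 1 in Hdc. Of all 32851 RefSeq windows of 300 bases, 29.8% held one. Searched on both strands, the word TATAAA was found in 2 of the 6 windows, those of Cpa3 and Mcpt4, against 13.6% of all windows, and on the gene's own strand it starts at -31 in Cpa3 and at -32 in Mcpt4. The words CATGTG and CACGTG, which Mitf can read, were on either strand in none of the 6 windows and in 20.4% of all. The Kit window had a GC content of 69%, against 43.3% for Cpa3, 47% for Cma1 and 51.7% for Mcpt4. These matches describe the letters only, and binding was not measured.

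Total counts were 16484772 and 16111122 in the 32-week libraries and 12925869 and 14265485 in the 8-week libraries, and each library registered 16139 to 16484 genes. CPM values below are counts scaled to library size with edgeR's TMM factors, and a count of 0 allows up to 3 counts, or 0.174 to 0.221 CPM, with counting error alone considered. Libraries did not group by age: across the 12810 genes tested for age, log2 CPM of 32-week replicate 4 and 8-week replicate 1 correlated most closely (Pearson r = 0.984, across genes, which are not replicates), against r = 0.979 for the pair of 32-week glands and r = 0.958 for the 8-week pair. The targeted gene Nkx2-3 had 21 and 29 counts at 32 weeks and 31 and 28 counts at 8 weeks; the sources used here do not say which part of it was removed. The gland's secretory genes were abundant, the 7 acinar markers summing to 161007 and 192560 CPM in the 32-week libraries, against 200728 and 169238 CPM in the 8-week libraries.

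Tpsb2, a tryptase of connective tissue mast cells (NCBIM37 chromosome 17, 25503486 to 25505804, plus strand), was the protease with the most counts. It had 4 and 32 counts in 32-week replicates 3 and 4, or 0.276 and 1.86 CPM, against 16 and 8 counts in 8-week replicates 1 and 2, or 1.18 and 0.552 CPM. Replicate 4 was highest and replicate 3 lowest, both at 32 weeks, so the ages overlapped. Tpsab1, the neighbouring tryptase gene, which carries a splice-site mutation in C57BL/6 mice, had 0 counts in all 4 libraries. The coding sequences of Tpsb2 and Tpsab1 were 75.8% identical over 830 aligned bases, and no stretch of 50 bases of the Tpsb2 transcript recurred in another protein-coding gene of the annotation.

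Cma1, the mast cell chymase that acts as an elastase in mice (chromosome 14, 56560290 to 56563498, minus strand), had 4 and 18 counts at 32 weeks, or 0.276 and 1.05 CPM, against 15 and 3 counts at 8 weeks, or 1.11 and 0.207 CPM. Mcpt4, a chymase of connective tissue mast cells (chromosome 14, 56678581 to 56681147, minus strand), had 1 and 20 counts at 32 weeks, or 0.0691 and 1.16 CPM, against 11 and 1 counts at 8 weeks, or 0.811 and 0.069 CPM. Both chymases were high in 32-week replicate 4 and 8-week replicate 1 and low in the other library of each age. Mcpt4 had the widest range as a ratio, and its 1-count libraries lie under the 3-count limit. Of the Mcpt4 transcript's 50-base stretches, 6.16% also occur in Cma2 or Mcpt9, so reads from them are uncertain, and both of these genes had 0 counts.

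Cpa3, the carboxypeptidase A of mast cell granules (chromosome 3, 20115516 to 20142080, minus strand), had 7 and 11 counts at 32 weeks, or 0.484 and 0.639 CPM, against 5 and 1 counts at 8 weeks, or 0.369 and 0.069 CPM. Of the 5 members with a count in every library it was the only one whose ages did not overlap, and both 32-week libraries lay above both 8-week libraries in 13.5% of the 18104 genes with any count. The 95% exact Poisson interval of 32-week replicate 3 (0.194 to 0.996 CPM) overlapped those of 8-week replicate 1 (0.12 to 0.86 CPM) and 8-week replicate 2 (0.00175 to 0.384 CPM). The interval of 32-week replicate 4 (0.319 to 1.14 CPM) also overlapped both 8-week intervals, that of 8-week replicate 2 only at its edge, with 11 counts against 1. Overlap of intervals is not a test, and differences between single libraries were not tested.

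**Figure D1:**
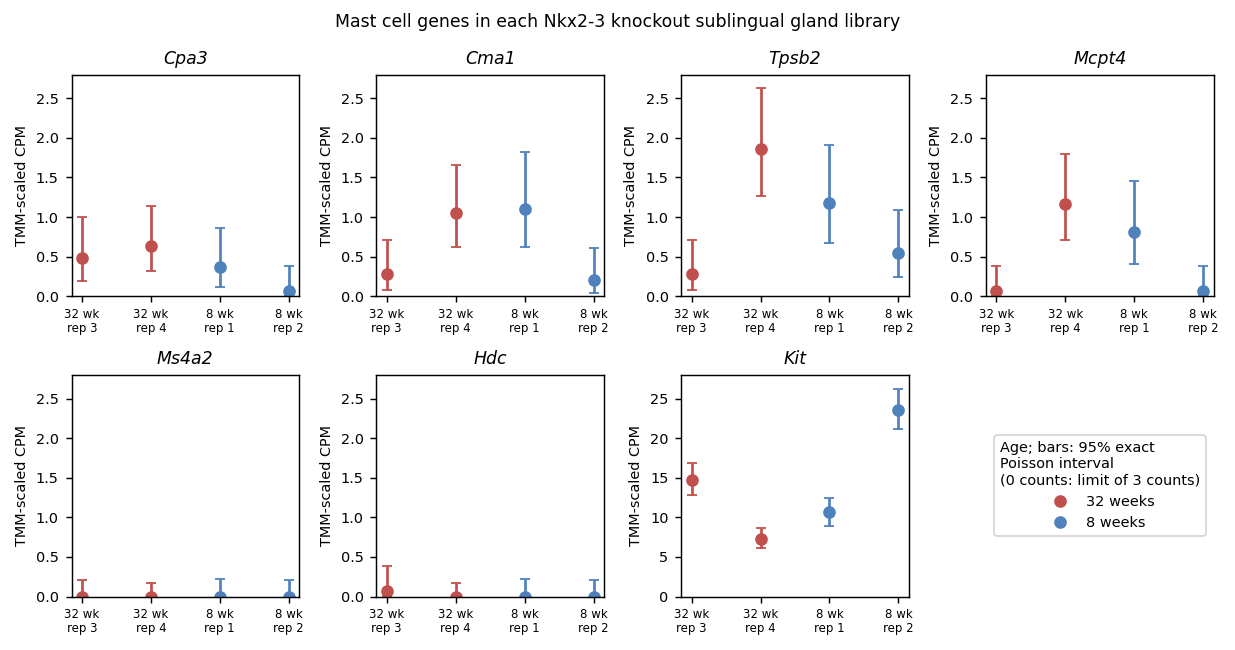
TMM-scaled CPM of the 7 mast cell genes in each library, with 32-week libraries in red and 8-week libraries in blue; points are single libraries and bars are 95% exact Poisson intervals of the count (up to the 3-count limit where the count is 0), which cover counting error only. The axis of Kit runs to 28 CPM and the other axes to 2.8 CPM; Cma1, Tpsb2 and Mcpt4 are higher in 32-week replicate 4 and 8-week replicate 1 than in the other libraries, and Kit is highest in 8-week replicate 2 with 23.6 CPM.

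Ms4a2, the beta chain of the high-affinity IgE receptor (chromosome 19, 11690013 to 11698209, minus strand), had 0 counts in every library. Fcer1a, the IgE-binding alpha chain, was likewise at 0 in all 4. Fcer1g, the gamma chain that the receptor shares with Fc receptors of macrophages and other cells, stood at 21.3 and 22.9 CPM in the 32-week libraries, against 26.5 and 13.4 CPM in the 8-week libraries. The 2 chains particular to the IgE receptor were thus under the limit of 3 counts at this depth while the shared chain was readily counted.

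Hdc, the enzyme that makes histamine from histidine (chromosome 2, 126419403 to 126445035, minus strand), had 1 and 0 counts at 32 weeks and 0 counts in both 8-week libraries. Slc18a2, the vesicular transporter that loads histamine and other monoamines, stood at 8.70 and 8.83 CPM in the 32-week libraries, against 11.2 and 9.94 CPM in the 8-week libraries. Its level was nearly even over the libraries in which the proteases differed. Hnmt, which inactivates histamine inside cells, had 12.4 and 14.3 CPM in the 32-week libraries, against 16.6 and 18.3 CPM in the 8-week libraries. The 4 histamine receptor genes Hrh1, Hrh2, Hrh3 and Hrh4 had at most 2 counts in a library.

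Kit, the stem cell factor receptor (chromosome 5, 75970941 to 76052747, plus strand), had 213 and 126 counts at 32 weeks, or 14.7 and 7.32 CPM, against 144 and 342 counts at 8 weeks, or 10.6 and 23.6 CPM. Replicate 2 of the 8-week libraries was highest and replicate 4 of the 32-week libraries lowest, and the ages overlapped. Kitl, the ligand, was even over the libraries, at 15.9 and 14.2 CPM in the 32-week libraries, against 18.0 and 15.5 CPM in the 8-week libraries.

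Per length, Kit led the members and Tpsb2 followed. The level of Kit per kilobase of exon was 2.52 and 1.25 CPM in the 32-week libraries, against 1.82 and 4.05 CPM in the 8-week libraries, with a mean over the 4 libraries of 2.41 CPM per kilobase. The mean per kilobase was 0.866 CPM for Tpsb2, 0.613 CPM for Cma1, 0.533 CPM for Mcpt4, 0.269 CPM for Cpa3 and 0.0027 CPM for Hdc. Each neighbouring pair in this order from Kit to Cpa3 overlapped in range over the libraries. In 32-week replicate 4 the level of Tpsb2 (1.66 CPM per kilobase) exceeded that of Kit, whereas in 8-week replicate 2 Tpsb2 stood at 0.494 CPM per kilobase.

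The sum of the 6 members other than Kit, nearly all of it from the 4 proteases, was 17 and 81 counts at 32 weeks and 47 and 13 counts at 8 weeks. On the CPM scale the sum was 1.17 in 32-week replicate 3 (95% exact Poisson interval 0.684 to 1.88) and 4.71 in 32-week replicate 4 (3.74 to 5.85). It was 3.47 in 8-week replicate 1 (2.55 to 4.61) and 0.897 in 8-week replicate 2 (0.478 to 1.53). Within each age the intervals of the 2 libraries did not overlap, so the libraries of an age differed by more than counting error. Across ages the intervals of replicates 4 and 1 overlapped, as did those of replicates 3 and 2, so the order within these pairs was not resolved. The 32-week libraries differed 4.01-fold and the 8-week libraries 3.86-fold, while the mean was 2.94 ± 2.50 CPM at 32 weeks and 2.18 ± 1.82 CPM at 8 weeks (SD, n = 2 each), a ratio of 1.35. Without 32-week replicate 4 the log2 ratio was -0.89 and without 8-week replicate 2 it was -0.24, in place of 0.43. The spread within an age was therefore larger than the difference between the ages. With 2 libraries against 2, the smallest p that an exact permutation test allows is 0.333. Set against the Kit counts, the summed counts of these 6 genes amounted to 7.98% and 64.3% at 32 weeks and to 32.6% and 3.80% at 8 weeks.

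The age comparison was fitted over 12810 genes that passed edgeR's low-count filter, and 4 of the 7 members passed it (Cma1, Tpsb2, Mcpt4 and Kit). Called genes made up 0% of those tested at an adjusted p of 0.05 with edgeR's quasi-likelihood test and Benjamini-Hochberg adjustment, and 174 genes (1.36%) had an unadjusted p under 0.05. No member was among either. DESeq2 called 3 genes, or 0.0166% of 18104, and limma-voom called 0, with 177 at an unadjusted p under 0.05, and neither called a member. Cpa3, fitted without the filter, had a log2 fold change (32 over 8 weeks) of 1.36 (SE 0.88, 95% interval -0.44 to 3.15, edgeR adjusted p = 0.995). Mcpt4 had a log2 fold change of 0.56 (SE 1.17, 95% interval -2.19 to 3.30, edgeR adjusted p = 0.999). The estimate was 0.35 for Tpsb2 (95% interval -1.56 to 2.25) and 0.06 for Cma1 (-1.96 to 2.09), both with edgeR adjusted p = 0.999. Kit had a log2 fold change of -0.64 (SE 0.44, 95% interval -1.67 to 0.38, edgeR adjusted p = 0.999). The median log2 fold change of the 4 members tested was 0.20, against -0.01 over all genes tested. These intervals include severalfold differences in either direction for Cma1, Tpsb2 and Mcpt4. Single libraries set the sign of the estimates of Cma1, Tpsb2, Mcpt4 and Kit, while that of Cpa3 stayed positive. Without 32-week replicate 4 the log2 fold changes of Cma1, Tpsb2 and Mcpt4 were -1.20, -1.61 and -2.50, and without 8-week replicate 2 they were -0.69, -0.091 and -0.32. That of Kit was 0.0492 without 8-week replicate 2, and that of Cpa3 was 0.61 without the same library and 2.90 without 8-week replicate 1.

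**Figure D2:**
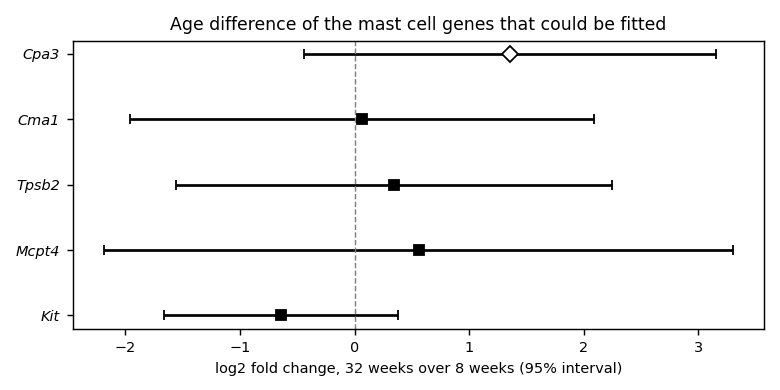
Log2 fold change, 32 weeks over 8 weeks, of the 5 members that could be fitted, with 95% intervals from edgeR's quasi-likelihood model (2 libraries per age). Filled squares are genes that passed the low-count filter and the open diamond (Cpa3, 1.36) comes from the fit without it; all 5 intervals include 0.

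Other mast cell genes ranged from 0 counts to readily counted. Of 13 further protease and granule genes, 7 had 0 counts in every library, among them the mucosal chymases Mcpt1 and Mcpt2. The other genes included Srgn, the serglycin core protein of many blood-derived cells, at 9.67 and 9.06 CPM in the 32-week libraries, against 9.95 and 6.21 CPM in the 8-week libraries. Of 15 receptor genes, 2 had 0 counts in every library, Fcer1a and Mrgprb2, and Mrgprb2 is the mast cell receptor for basic secretagogues. Mrgprb1, of the same receptor family, had 0 and 2 counts at 32 weeks and 0 and 1 counts at 8 weeks, and Cd200r3, an activating receptor of mast cells and basophils, had 1 and 2 counts at 32 weeks and 2 and 0 counts at 8 weeks. Rasgrp4, a Ras activator of mast cells, had 16 and 23 counts at 32 weeks, or 1.11 and 1.34 CPM, against 19 and 25 counts at 8 weeks, or 1.40 and 1.72 CPM. Il1rl1, the receptor of the alarmin Il33, had 0.967 and 1.45 CPM in the 32-week libraries, against 0.811 and 0.828 CPM in the 8-week libraries. Gata1 was at 0 in every library. Gata2 had 8 and 7 counts at 32 weeks and 2 and 3 counts at 8 weeks, and was removed by the filter. Mitf, which drives mast cell and melanocyte genes, was even, at 8.70 and 6.62 CPM in the 32-week libraries, against 7.45 and 6.49 CPM in the 8-week libraries.

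No gene of the related pathways passed the age test in either direction, as none of all 12810 genes did (0%), so the counts show nothing particular to these lists. The counts were 0 of 5 tested for further granule genes (median log2 fold change -0.13), 0 of 9 for receptors (0.17), 0 of 15 for IgE receptor and Kit signalling (-0.04) and 0 of 6 for transcription factors (0.10). They were 0 of 6 for growth and attraction signals (-0.16), 0 of 2 for histamine handling (-0.33), 0 of 11 for heparin and serglycin synthesis (0.17) and 0 of 6 for prostaglandin and leukotriene synthesis (-0.01). Syk, the kinase that couples the IgE receptor to the cell interior, had 3.25 and 5.05 CPM in the 32-week libraries, against 3.47 and 2.76 CPM in the 8-week libraries. Hpgds, the prostaglandin D synthase of mast cells and some macrophages, had 3.32 and 3.95 CPM in the 32-week libraries, against 4.42 and 2.07 CPM in the 8-week libraries. Il33, an alarmin that activates mast cells, had 4.70 and 4.65 CPM in the 32-week libraries, against 7.67 and 5.66 CPM in the 8-week libraries. Of the cytokines made by or acting on mast cells, Il3, Il6, Il9 and Il13 were at 0 in every library, and Il4, Il10 and Csf2 had at most 2 counts in a library. Il5 had 1 and 5 counts at 32 weeks and 5 and 8 counts at 8 weeks.

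Basophils share genes with mast cells, Ms4a2, Hdc and Gata2 among them, and 4 of 5 basophil markers had at most 3 counts in every library. The other, Gata2, had 8 and 7 counts at 32 weeks and 2 and 3 counts at 8 weeks. Whether basophils added to the counts of any member was not tested. Mcpt8, the basophil protease, had 0 counts in all 4 libraries, and the 5 markers summed to 0.691 and 0.755 CPM in the 32-week libraries, against 0.295 and 0.207 CPM in the 8-week libraries. The melanocyte list, for cells that also use Kit and Mitf, had 2 of 6 markers at 0 in every library, the pigment enzymes Tyr and Tyrp1, and Mlana had at most 2 counts. Pmel, a melanosome protein, had 78 and 67 counts at 32 weeks against 57 and 71 counts at 8 weeks, and Sox10, a factor of melanocytes, glia and salivary epithelium, had 234 and 156 counts at 32 weeks against 118 and 108 counts at 8 weeks. Dct, another pigment enzyme, had 20 and 18 counts at 32 weeks against 6 and 7 counts at 8 weeks, and none of these 3 genes passed the age test (edgeR adjusted p = 0.999 for each). Of the 11 neutrophil and eosinophil markers in the table, 9 had at most 3 counts in a library, among them Elane, the neutrophil elastase, at 0 throughout. Ltf, the lactoferrin of neutrophil granules that glandular epithelium also makes, had 11.3 and 57.9 CPM in the 32-week libraries, against 22.4 and 14.6 CPM in the 8-week libraries, and Prg2, an eosinophil granule protein, had 4.28 and 7.49 CPM in the 32-week libraries, against 5.68 and 0.483 CPM in the 8-week libraries.

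The summed markers of other immune cells and of fat tissue were, like the proteases, higher in 32-week replicate 4 and 8-week replicate 1 than in the other library of their age, but single genes varied. This order was not particular to them, since the Schwann cell and mast cell transcription factor sums had it too. The latter differed little at 32 weeks (135 and 137 CPM). The acinar sum also had it, but its genes were split. Smgc had 41944 and 125724 CPM in the 32-week libraries, against 141970 and 73222 CPM in the 8-week libraries, and Bhlha15 shared this order. Bpifa2, Dcpp1, Muc19 and Pip had the reverse order at both ages, and Aqp5 had it at 32 weeks only. The duct, endothelial, myoepithelial and skeletal muscle sums did not have the order of the proteases. Replicates 4 and 1 were also the most closely correlated libraries (Pearson r = 0.984), and the share of all genes with this order was not computed. The 11 T cell and NK cell markers in the table summed to 5.46 and 9.82 CPM in the 32-week libraries, against 13.9 and 4.83 CPM in the 8-week libraries, with Cd3e and Cd8a at 0 in 32-week replicate 3. Of the 4 of these markers tested, 3 were lowest in 8-week replicate 2. The 12 macrophage and dendritic cell markers summed to 173.8 and 249 CPM in the 32-week libraries, against 246 and 139 CPM in the 8-week libraries, and 9 of 11 tested were lowest in 8-week replicate 2, against 35.3% of all genes. The 9 B cell and plasma cell markers in the table summed to 1301 and 1472 CPM in the 32-week libraries, against 1649 and 544 CPM in the 8-week libraries. The 10 adipocyte markers summed to 32.3 and 43.0 CPM in the 32-week libraries, against 77.6 and 29.8 CPM in the 8-week libraries, and Cidec, a lipid droplet protein, was at 0 in 32-week replicate 3. Between the 32-week libraries the B cell and plasma cell sum differed little, with Xbp1, a plasma cell and secretory cell factor, at 751 and 627 CPM and Mzb1 at 11.3 and 10.2 CPM, both lower in replicate 4, while Jchain, the antibody joining chain, had 512 and 799 CPM. Fabp4, a fatty acid carrier of fat and vessel cells and the largest adipocyte term, was at 29.7 and 30.8 CPM in the 32-week libraries, against 35.8 and 20.9 CPM in the 8-week libraries. Their part in the protease levels was not tested. The 8 fibroblast markers summed to 423 and 338 CPM in the 32-week libraries, against 372 and 321 CPM in the 8-week libraries, lower in replicate 4 than in replicate 3.

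**Figure D3:**
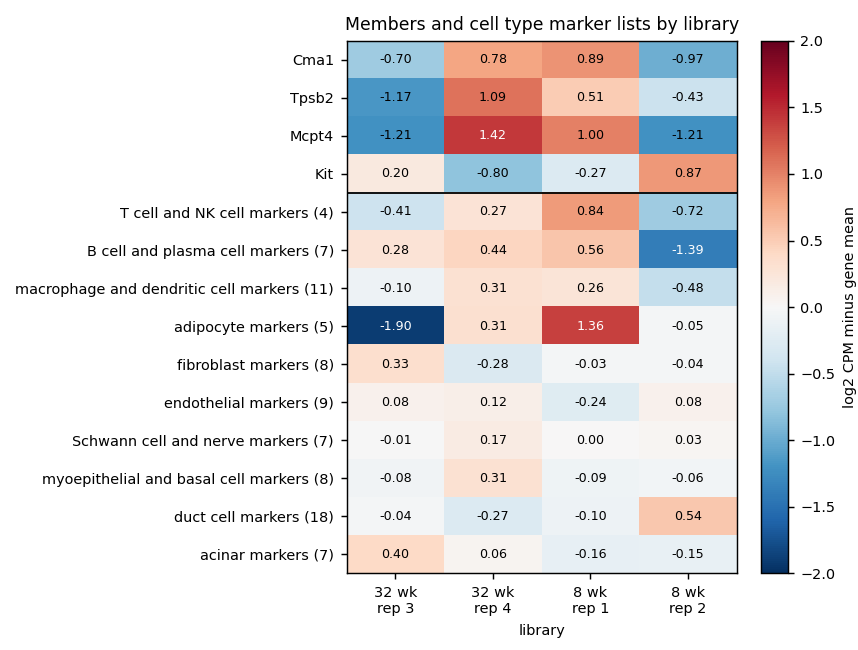
Log2 CPM (prior count of 2) minus the gene's mean over the 4 libraries, for the 4 members that passed the filter (upper rows) and as the median over the tested genes of each marker list (lower rows, number of genes in brackets), in 32-week and then 8-week libraries. Cma1, Tpsb2 and Mcpt4 are above their mean in 32-week replicate 4 and 8-week replicate 1, and Kit is above its mean in the other libraries.

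Kit and the summed duct markers had the same order over the 4 libraries. Klk1, a large part of that sum, had this order by itself, and the order of the sum without Klk1 was not computed. The 21 duct markers, Klk1 being the largest term in each library, came to 3783 and 2879 CPM in the 32-week libraries, against 3537 and 6075 CPM in the 8-week libraries. Of the 18 duct markers tested, 10 were highest in 8-week replicate 2, as Kit was (55.6%, against 34.8% of all genes tested), and 8 were lowest in 32-week replicate 4, as Kit was (44.4%, against 20.4%). Foxi1, a transcription factor of ionocytes, had 2.90 and 1.45 CPM in the 32-week libraries, against 1.77 and 6.55 CPM in the 8-week libraries. Scnn1b, a subunit of the epithelial sodium channel of ducts, had 3.52 and 2.15 CPM in the 32-week libraries, against 2.95 and 7.80 CPM in the 8-week libraries. Klk1, the kallikrein of duct cells, had 2173 and 1307 CPM in the 32-week libraries, against 2004 and 4324 CPM in the 8-week libraries. Not all duct genes followed. Of the 18 tested, 4 were lowest in 8-week replicate 2 (22.2%, against 35.3% of all genes tested). In 32-week replicate 4, 2 were highest (11.1%, against 20.5%). Krt18, a keratin, had 789 and 858 CPM in the 32-week libraries, against 754 and 633 CPM in the 8-week libraries. Sox9, a duct and progenitor factor, was also lowest in 8-week replicate 2, with 167.8 CPM. How much of the Kit signal came from duct cells was not tested.

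**Figure D4:**
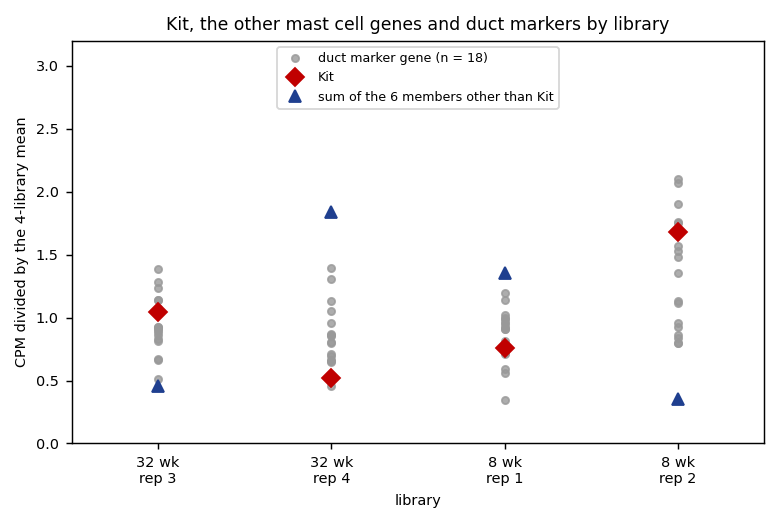
CPM divided by the mean of the 4 libraries, for Kit (red diamonds), the sum of the 6 members other than Kit (blue triangles) and each of the 18 tested duct marker genes (grey points), in 32-week and then 8-week libraries. Kit is at its highest in 8-week replicate 2, where 10 of the 18 duct markers are also at their highest and the sum of the other members is at its lowest. That sum is not resolved from the sum in 32-week replicate 3.

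The genes with the nearest profiles were named by the root mean square difference of centred log2 CPM over the 4 libraries. Nearest to the median profile of Cma1, Tpsb2 and Mcpt4 were Npas2 (difference 0.13), Nfil3 (0.14), Gm5547 (0.19), Ptprn2 (0.23) and E030013I19Rik (0.24). Npas2, a transcription factor of the circadian clock, had 1.24 and 7.15 CPM in the 32-week libraries, against 7.01 and 1.45 CPM in the 8-week libraries. Nfil3, a clock-regulated factor, had 2.42 and 12.6 CPM in the 32-week libraries, against 11.8 and 2.41 CPM in the 8-week libraries. The sources used here do not give the time of day of dissection, and a link between it and the protease levels was not tested. Nearest to Kit were Echdc1 (difference 0.04), Odam (0.06), Ccnb2 (a mitotic cyclin, 0.08), Rad54l (a DNA repair factor, 0.08) and Tmem117 (0.08). Echdc1, an enzyme that clears a by-product of fatty acid synthesis, had 3.59 and 1.63 CPM in the 32-week libraries, against 2.36 and 5.66 CPM in the 8-week libraries. With 4 libraries such likeness is a description of these libraries.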

How the data were processed

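RNA sequencing was done on sublingual glands of female Nkx2.3-/- mice at 2 ages with 2 libraries each. Per the labels' protocols, frozen glands were extracted with Trizol and libraries made with the Illumina TruSeq RNA kit. STAR and the mouse build mm9 are named in the submitters' processing notes. The sources used here do not give how reads were counted (tool, annotation, strand), so antisense reads cannot be told apart. The authors deposited raw read counts, whole numbers with no normalization, for 24411 gene symbols.

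Counts were fitted with edgeR 4.0.16 in R 4.3.3 (quasi-likelihood test, TMM factors, default filter with a minimum count of 10, Benjamini-Hochberg adjustment over 12810 genes, threshold 0.05), with age as the only term. CPM and fold changes were computed from this fit. Alternatives were other scalings (RLE, library totals, or TMM without the 10 genes of most counts), other filters (none, or 1 CPM in at least 3 libraries), other tools (limma-voom from limma 3.58.1, DESeq2 1.42.0) and each library left out. Scripts were tested on simulated data. Profiles used a prior count of 2. Gene positions and union exon lengths are from GENCODE vM1 on NCBIM37, the assembly that mm9 names, and all 7 members matched by symbol. The genes named besides the members are those of the marker and pathway lists and the 5 nearest in profile to the proteases and to Kit. Members and lists were chosen with earlier results of these data known. Depth is given with the results, and intervals and limits cover counting error only.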

Additional observations from a re-analysis of the deposited data

How the results depend on the processing

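The number of genes called between the ages, 0 with edgeR's main settings (174 at an unadjusted p under 0.05), stayed at 0 with RLE factors, the 10 most abundant genes left out, the CPM filter and limma-voom. It was 10 with total counts only, 7 with no low-count filter and 3 with DESeq2, and 6 to 284 with each library left out in turn (284 without 8-week replicate 1). No member was called under any of these settings. The log2 fold change of Tpsb2 was -0.0498 with limma-voom. With single libraries left out, where the lone library of an age is assumed to vary like the other age, it ranged from -1.20 to 1.68 for Cma1, -1.61 to 1.11 for Tpsb2, -2.50 to 3.08 for Mcpt4, 0.61 to 2.90 for Cpa3 and -1.21 to 0.0492 for Kit. The log2 ratio of the summed level of the 6 members other than Kit was 0.43, and it ranged from -0.89 without 32-week replicate 4 to 1.71 without 8-week replicate 1. The CPM filter removed every member but Kit, so it gave no value for the others. Counts of 1 to 32 per library limit what can be said of the proteases. No paired analysis was possible because the ages share no replicate number.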
